A study of Homo sapiens with 6 samples.

Results

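Noncoding RNA genes and loci without an approved gene name were examined in Rh30 cells that overexpressed PANX1. An entry of the expression table was taken when its name started with LOC and digits, LINC, SNHG, SNOR, SCARNA or MIR and digits, or contained -AS and digits. The rule uses names only, and it found 16 of the 1273 entries. Of these, 8 name a single gene and 8 name a microRNA together with the protein-coding gene that hosts it. A further 7 entries carry such a name only in second place and were kept apart.

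RNA was sequenced from 6 libraries of Rh30, an established human line of alveolar rhabdomyosarcoma, a childhood cancer whose cells resemble muscle precursors. The 3 PANX1 libraries came from stable cells with a PANX1 cDNA under a cumate-inducible switch, and the 3 control libraries from stable cells with the GFP vector. Both groups were grown with geneticin and puromycin and received 30 µg/mL cumate for 48 h. According to the study's methods the lentiviral vector also carries GFP behind a constitutive EF1 promoter, so PANX1 cells express GFP as well. It was not stated whether the stable lines were single clones. Values are FPKM, fragment counts divided by transcript length and library total, so that levels can be compared between genes of different length. The deposited values carry no counts. The study's methods give totals of sequenced reads for the replicates of each group, which were not used here, so no counting error stands beside a value. The table holds entries that the authors had already called changed between these libraries, so every count below describes the spread between replicates within a selected table. PANX1 itself follows the labels. The control libraries had 37.8, 35.3 and 28.1, and the libraries of the overexpressing cells had 124, 184 and 123, with values given here and below in the order of replicates 1, 2 and 3 of each group. The means were 33.7 ± 5.02 (SD, n = 3) and 144 ± 35.2 (SD, n = 3), a 4.26-fold difference without overlap.

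Markers of the muscle lineage are present in the table. Of 22 such markers, 5 are entries, and limma called 3 higher and 1 lower in PANX1 cells, beside 33.5% and 0.707% of the table. DES, the muscle intermediate filament desmin, had a mean FPKM of 282 in GFP and 461 in PANX1 cells and was not called (adjusted p = 0.0885). TNNT1, slow skeletal troponin T, was called higher, with 140 and 283 (adjusted p = 0.0464), and so were the cadherin gene CDH15 and the receptor gene FGFR4. MYH8, a developmental myosin heavy chain, was called lower, with 0.626 and 0.135 (log2 ratio -2.21, adjusted p = 0.0354). After a correction for GC content none of these 4 was called, with adjusted p from 0.188 to 0.497. None of 10 markers listed for epithelial, endothelial and blood cells is an entry, which does not show that they are silent, since the table holds called genes only and the genes outside it were not analysed here. The list is not complete. The epithelial keratin gene KRT7 is an entry and was called higher (limma difference 1.07, adjusted p = 0.00768). The endothelial genes TIE1 and ROBO4 are entries too, with positive limma differences that were not called (adjusted p = 0.0807 and 0.0618).

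Long noncoding RNAs are transcripts without a long open reading frame, many of them spliced and polyadenylated like messenger RNA. Antisense transcripts run against a coding gene and often start at a promoter that drives both strands. Host genes of small nucleolar RNAs, the SNHG genes, carry in their introns the guides that modify ribosomal RNA, and the spliced host RNA is usually short-lived. MicroRNAs are cut from hairpins in longer transcripts, and bases 2 to 8 of the mature strand, the seed, pair with target messages. The libraries were purified by their poly-A tails, and mature microRNAs have none, so the mature strands were not measured, and an entry that pairs a microRNA with a coding gene holds a single value for both names.

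The names were matched to RefSeq, where 15 of the 16 noncoding names have a record. LOC100130776 is AGAP2-AS1, LOC338758 is ATP2B1-AS1 and TMEM161B-AS1 is now TMEM161B-DT, all long noncoding RNAs. LOC284412 and SNHG9 are also long noncoding RNAs. LOC100288778 is WASH8P, a transcribed pseudogene of the WASH family, whose coding members help to nucleate actin on endosomes. LINC00116 is no longer classed as noncoding. RefSeq lists it as MTLN, a protein-coding gene for mitoregulin, a micropeptide of mitochondria. LOC100507387 had no match. The 8 microRNA names are all microRNA genes.

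Mature strands are shown for 6 of the 8 hosted microRNAs, all but MIR639 and MIR937, because the seed defines what each could target, although their own levels were not measured. They come from RefSeq, 5′ to 3′, with the seed in capitals.
hsa-miR-1909-3p: cGCAGGGGccgggugcucaccg
hsa-miR-1909-5p: uGAGUGCCggugccugcccug
hsa-miR-3605-3p: cCUCCGUGuuaccuguccucuag
hsa-miR-3605-5p: uGAGGAUGgauagcaaggaagcc
hsa-miR-4721: uGAGGGCUccaggugacggugg
hsa-miR-4800-3p: cAUCCGUCcgucuguccac
hsa-miR-5193: uCCUCCUCuaccucaucccagu
hsa-miR-943: cUGACUGUugccguccuccag
None of these strands shares its seed with another of them. Each of the 8 hairpins overlaps an annotated exon of the canonical transcript of its host, on the host's strand. MIR4800 lies wholly inside exon 6 of MXD4, on chromosome 4 of hg19 from 2251804 to 2251883. MIR639 crosses the edge of exon 1 of TECR, with 47 of its 98 bases in the exon, and the other 6 cross an exon edge too.

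Mean FPKM was higher after PANX1 overexpression in 14 of the 16 entries and lower in 2. The table as a whole is close to this, with 87.0% of its entries higher and 13.0% lower. In such bulk RNA, fewer cells that express a gene and less of its RNA in each cell cannot be told apart. limma on log2(FPKM + 1), with Benjamini-Hochberg adjustment over the 1273 entries, called 8 higher at an adjusted p under 0.05, against 33.5% of the table. SNHG9, LOC100130776, LOC100288778, LINC00116, TMEM161B-AS1 and the hosts TUFM, TECR and UBA7 were upregulated. LOC100507387 was the single entry called lower, in a table where 0.707% were called lower. All 14 higher entries had PANX1 libraries above every GFP library, and both lower entries had them below, against 82.0% and 11.9% of the table. The exact two-sided permutation p was 0.1 for each of the 16, the smallest that 3 libraries against 3 allow. The median log2 ratio of mean FPKM was 1.35 for the 16 entries and 1.23 for all 1273. By kind, it was 1.86 for the entries that name a single gene and 1.20 for the microRNA hosts. The log2 ratio passed 1 in 13 of the 16, against 72.0% of the table, and was below -1 in 1, against 3.22%.

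**Figure D1:**
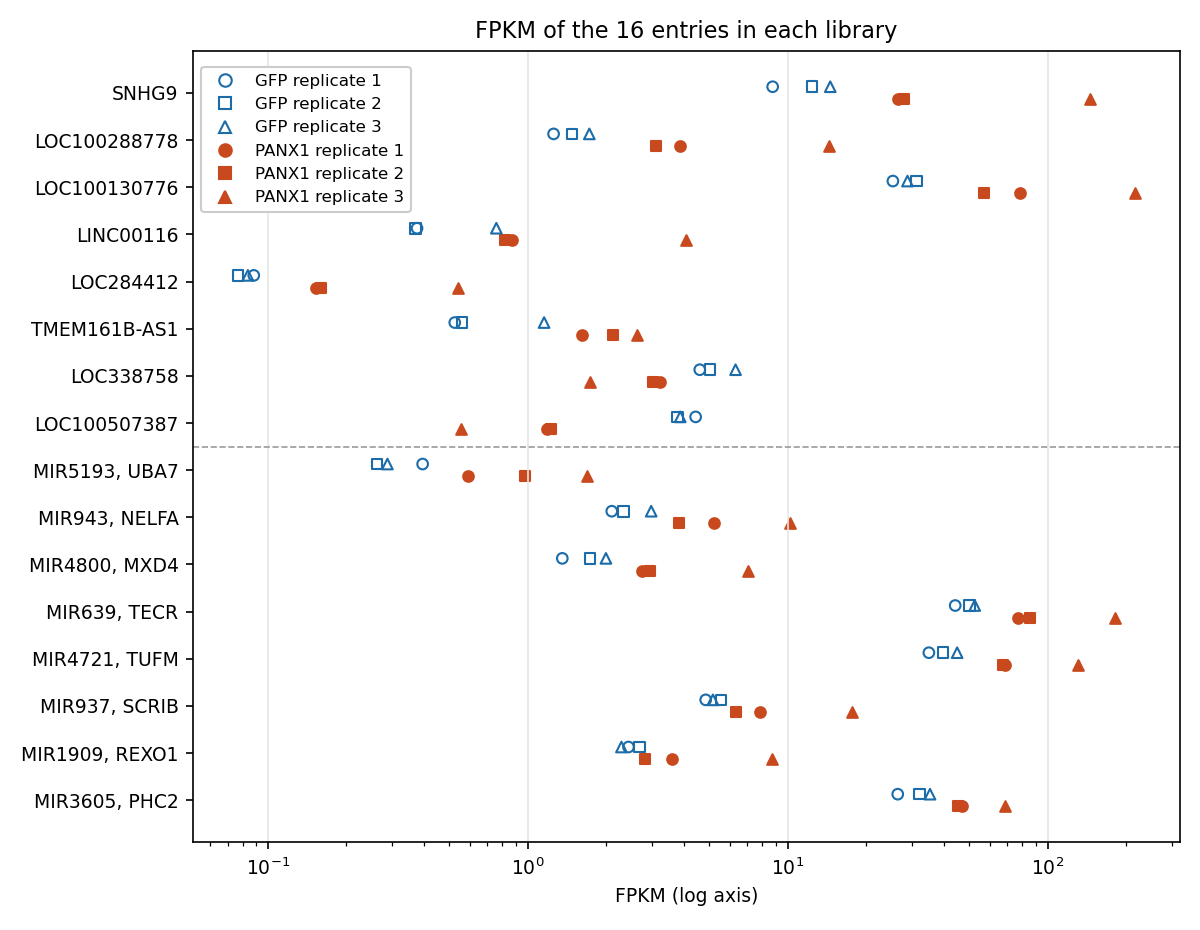
FPKM (log axis) of the 16 entries in the 3 GFP libraries (open blue) and the 3 PANX1 libraries (filled orange), with single-gene entries above the dashed line and microRNA hosts below it. PANX1 replicate 3 (triangle) is the farthest from GFP in every entry, and the groups overlap in none.

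SNHG9, the host of the snoRNA SNORA78, had the largest log2 ratio of the 16. The entry covers 509 bases on chromosome 16 of hg19, from 2014997 to 2015505, and RPS2, a ribosomal protein gene, starts just upstream on the other strand. Its FPKM was 8.76, 12.4 and 14.6 in GFP and 26.6, 28.0 and 145 in PANX1 cells. The first 2 PANX1 libraries lay close together and the third stood far above them. The mean rose from 11.9 ± 2.95 (SD, n = 3) to 66.6 ± 68.1 (SD, n = 3), or 5.59-fold, with a limma difference of 1.95 ± 0.424 (SE) and an adjusted p of 0.000367. Without PANX1 replicate 3 the log2 ratio was 1.20 in place of 2.48. SNHG9 ranked 43 from the top of the 1273 entries by log2 ratio.

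LOC100130776, the antisense gene AGAP2-AS1, was the most abundant of the single-gene entries in PANX1 cells. Its FPKM was 25.4, 31.4 and 28.9 in GFP and 78.3, 56.8 and 217 in PANX1 cells. All PANX1 libraries were well above the GFP libraries, which were close together. The mean rose from 28.6 ± 2.99 to 117 ± 86.8 (SD, n = 3 each), 4.11-fold, with a limma difference of 1.76 ± 0.384 (SE) and an adjusted p of 0.000367. Without PANX1 replicate 3 the log2 ratio was 1.24 in place of 2.04. The entry's span, on chromosome 12 from 58118076 to 58135944, is nearly that of AGAP2, a GTPase-activating protein gene on the opposite strand, and not that of AGAP2-AS1, which covers 2086 bases. Of the 1500 exon bases of AGAP2-AS1 in the span, 866 (57.7%) also lie in an exon on the other strand. The library protocol describes no step that marks the strand, so reads there cannot be assigned to AGAP2-AS1 or its partners.

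TMEM161B-AS1 starts head to head with TMEM161B, a membrane protein gene, and spans 167793 bases of chromosome 5, from 87564699 to 87732491. Its FPKM was 0.524, 0.558 and 1.16 in GFP and 1.62, 2.13 and 2.63 in PANX1 cells. GFP replicate 3 was the highest of its group and still below every PANX1 library. The mean rose from 0.746 ± 0.356 to 2.13 ± 0.510 (SD, n = 3 each), 2.85-fold, with a limma difference of 0.85 ± 0.314 (SE) and an adjusted p of 0.0338. Its log2 ratio was 1.33 without PANX1 replicate 3 and 1.51 with it, the smallest such shift among the single-gene entries.

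LOC338758, the antisense gene ATP2B1-AS1, had a lower mean in PANX1 cells. The span on chromosome 12, from 90102732 to 90105729, overlaps the start of ATP2B1, a plasma membrane calcium pump gene on the other strand, by 412 bases. FPKM was 4.59, 5.03 and 6.31 in GFP and 3.23, 3.04 and 1.74 in PANX1 cells. The groups did not overlap, and PANX1 replicate 3 was the lowest. The means were 5.31 ± 0.890 and 2.67 ± 0.812 (SD, n = 3 each), a log2 ratio of -0.99. The limma difference of -0.80 ± 0.488 (SE) did not pass the threshold (adjusted p = 0.117), and over the alternatives its adjusted p ranged from 0.00619 to 0.270.

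Windows at the starts of TMEM161B-DT and ATP2B1-AS1 are shown because both begin beside a coding gene on the other strand, and the TMEM161B-DT entry was upregulated while the mean of the ATP2B1-AS1 entry was lower. The sequence is the part of the RefSeq promoter (250 bases before to 50 after the start, from a table of the GRCh38.p14 build) that no annotated UTR covers, 5′ to 3′ on the plus strand. An exact match gave the hg19 positions. Capitals mark GGGCGG on either strand, the core of the GC box, and the 2 matches at the end of the first window overlap.
TMEM161B-DT, chr5:87564675-87564882: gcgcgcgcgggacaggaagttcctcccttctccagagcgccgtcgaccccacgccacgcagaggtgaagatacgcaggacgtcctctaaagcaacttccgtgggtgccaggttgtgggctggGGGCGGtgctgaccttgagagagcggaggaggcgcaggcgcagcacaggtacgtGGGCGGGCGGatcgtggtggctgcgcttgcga
ATP2B1-AS1, chr12:90102616-90102781: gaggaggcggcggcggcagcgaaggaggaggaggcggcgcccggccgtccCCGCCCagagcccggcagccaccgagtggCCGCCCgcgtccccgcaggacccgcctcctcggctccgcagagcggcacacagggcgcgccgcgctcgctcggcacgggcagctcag
In the full windows of 300 bases, TMEM161B-DT has 27 CpG and 3 GGGCGG matches, and ATP2B1-AS1 has 43 CpG and 3 matches. RefSeq gives TMEM161B-DT a second start farther along the gene, whose window, chr5:87687762-87688061, differs in composition, with 33.0% GC, 2 CpG, 0 GGGCGG, 1 CCAAT and 2 TATAAA matches. Over all 35116 RefSeq promoters the median is 14 CpG, and 44.95% hold GGGCGG on either strand. The AGAP2-AS1 window has 17 CpG and lies wholly within a UTR of AGAP2. Neither printed window holds CCAAT or TATAAA on either strand, letters found in 34.6% and 11.5% of the full-length promoters.

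**Figure D2:**
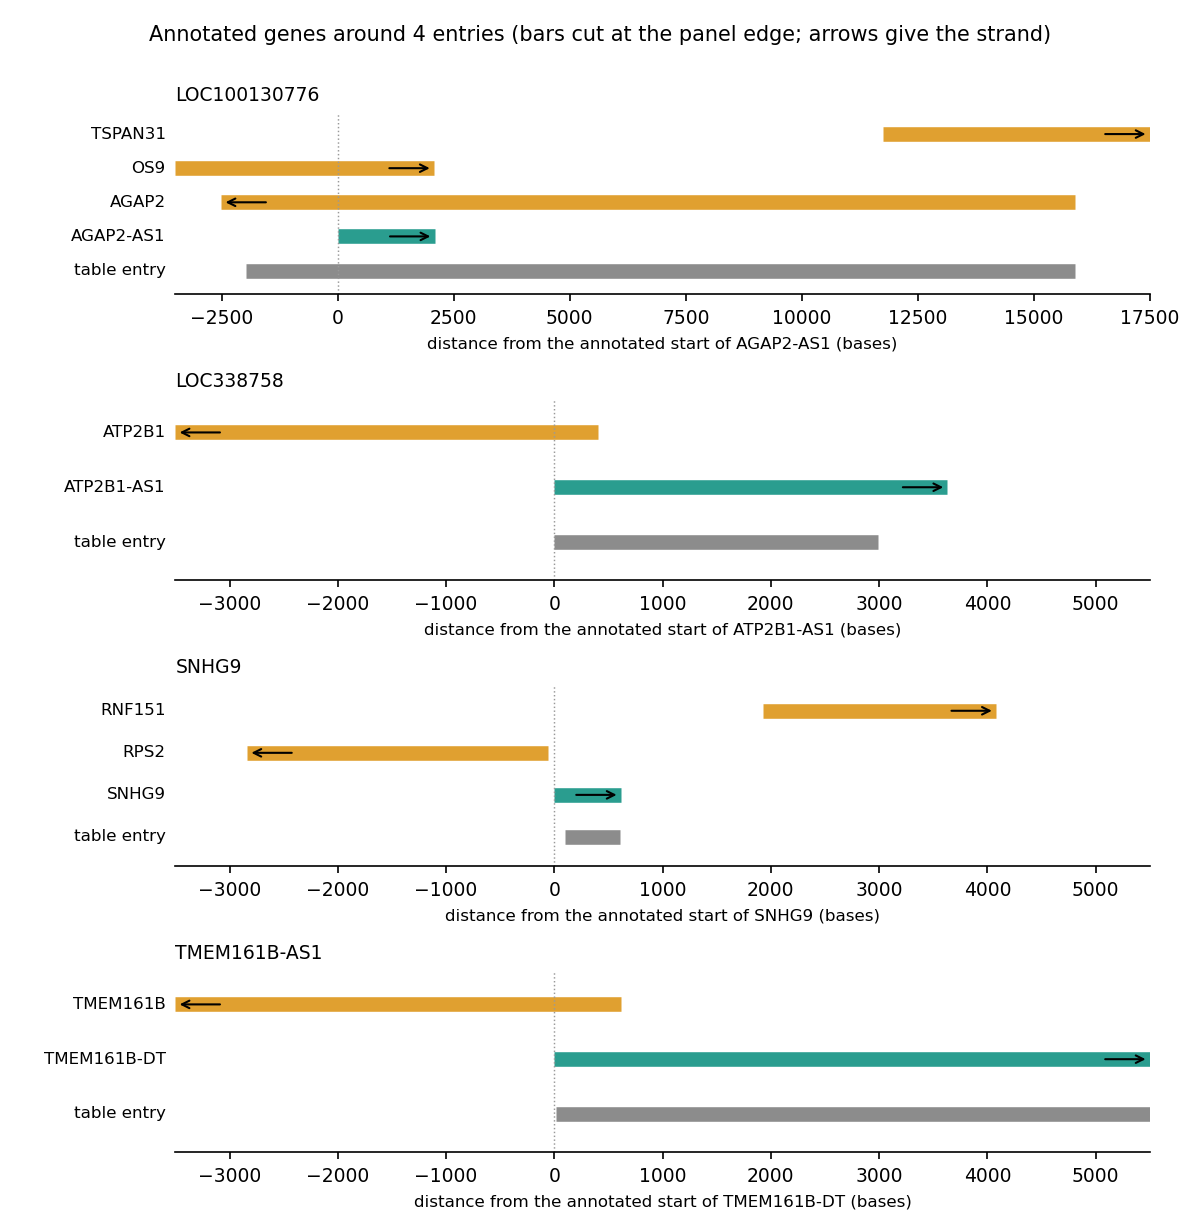
Position of 4 table entries (grey) beside annotated noncoding (green) and coding (orange) genes, as distance in bases from the start of the noncoding gene on hg19, with arrows for the strand. The LOC100130776 entry covers nearly all of AGAP2, while the LOC338758 and TMEM161B-AS1 entries overlap their coding partner only at its start.

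LOC100288778, the WASH8P pseudogene on chromosome 12 from 87984 to 91263, was also upregulated. FPKM was 1.26, 1.48 and 1.73 in GFP and 3.86, 3.11 and 14.5 in PANX1 cells, again highest in PANX1 replicate 3 and without overlap. The mean rose from 1.49 ± 0.235 to 7.14 ± 6.34 (SD, n = 3 each), 4.80-fold, with a limma difference of 1.45 ± 0.459 (SE) and an adjusted p of 0.0173. Leaving out PANX1 replicate 3 took the log2 ratio from 2.26 to 1.23. Its whole span of 3280 bases aligned at 6 other places of the genome with 98.5% to 98.9% identity, on chromosomes 1, 2, 9, 15, 16 and X. The level of this entry is therefore uncertain, since reads may be shared among the copies. The table also holds 2 of these copies, WASH7P on chromosome 1 and WASH3P on chromosome 15. WASH7P had 1.68, 1.20 and 1.09 in GFP and 2.73, 2.70 and 6.65 in PANX1 cells (log2 ratio 1.60, limma adjusted p = 0.0407). WASH3P had 0.566, 0.895 and 1.10 against 2.45, 2.04 and 8.91 (log2 ratio 2.39, limma adjusted p = 0.00688). Both copies were called higher, and in both PANX1 replicate 3 was the highest library, as in LOC100288778.

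LINC00116, the mitoregulin gene, lies on chromosome 2 from 110969106 to 110980517. FPKM was 0.375, 0.369 and 0.758 in GFP and 0.872, 0.819 and 4.07 in PANX1 cells. PANX1 replicates 1 and 2 were barely above GFP replicate 3, and PANX1 replicate 3 was far above. The mean rose from 0.501 ± 0.222 to 1.92 ± 1.86 (SD, n = 3 each), 3.84-fold, with an adjusted p of 0.0251 by limma. Without PANX1 replicate 3 its log2 ratio was 0.76 in place of 1.94.

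LOC284412, a long noncoding RNA on chromosome 19 from 37756841 to 37759912, was the lowest of all. Its FPKM was 0.0883, 0.0768 and 0.0838 in GFP and 0.154, 0.160 and 0.542 in PANX1 cells, and the log2 ratio of 1.78 rests on these low levels. limma did not call it (difference 0.23 ± 0.169 SE, adjusted p = 0.170). A copy with 99.1% identity over the full 3072 bases lies on the same chromosome from 36800497 to 36803570, so this value is uncertain as well.

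LOC100507387 was the entry called lower, and it ranked 5 from the bottom of the 1273 by log2 ratio. It lies on chromosome 5 from 175546552 to 175552168, inside a long noncoding RNA gene that GENCODE annotates on the plus strand without a symbol. FPKM was 4.43, 3.76 and 3.86 in GFP and 1.19, 1.23 and 0.553 in PANX1 cells. Every GFP library was at least 3.76 and every PANX1 library at most 1.23. The mean fell from 4.02 ± 0.358 to 0.991 ± 0.380 (SD, n = 3 each), a log2 ratio of -2.02, or 4.05-fold lower. The limma difference was -1.35 ± 0.395 (SE) with an adjusted p of 0.00937, and over the alternatives this p ranged from 0.00131 to 0.145. Leaving out GFP replicate 1, 2 or 3 took it to 0.145, 0.108 and 0.0607, while the log2 ratio stayed between -2.21 and -1.73 when any library was left out. A copy with 97.7% identity over the 5617 bases of the span lies on the same chromosome from 177140026 to 177145600, and reads may be shared with it.

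All 8 microRNA hosts had a higher mean in PANX1 cells, and limma called 3, beside 87.0% and 33.5% of the table. TECR, paired with MIR639, is a reductase of very long chain fatty acid synthesis and was the most abundant host. Its FPKM was 44.1, 50.2 and 52.5 in GFP and 76.7, 85.6 and 182 in PANX1 cells, a 2.34-fold rise with an adjusted p of 0.0242. TUFM, paired with MIR4721, is the mitochondrial translation elongation factor Tu. It had 35.0, 39.6 and 44.9 against 68.5, 67.6 and 131, a 2.24-fold rise with an adjusted p of 0.0289. UBA7, paired with MIR5193, is the activating enzyme that charges the ubiquitin-like protein ISG15. Its values were low, at 0.394, 0.263 and 0.289 against 0.590, 0.973 and 1.70, a 3.45-fold rise with an adjusted p of 0.0325. ISG15 itself was in the table with 0.308, 0.457 and 1.11 against 1.79, 1.48 and 7.96 (log2 ratio 2.58, limma adjusted p = 0.00306). ISG15 was set beside UBA7 for its known role, not by the naming rule. After the GC correction described below neither was called (adjusted p = 0.585 and 0.417), and the UBA7 difference turned to -0.12.

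The other 5 hosts did not pass the test, with adjusted p from 0.0747 to 0.157, although their groups did not overlap. NELFA, paired with MIR943, is a subunit of the negative elongation factor that holds RNA polymerase II near promoters, and it had 2.11, 2.34 and 2.99 in GFP against 5.19, 3.81 and 10.2 in PANX1 cells. MXD4, paired with MIR4800, is a MAX-binding antagonist of MYC, and it had 1.36, 1.74 and 2.00 against 2.75, 2.96 and 7.03. PHC2, paired with MIR3605, is a Polycomb protein and had 26.5, 32.1 and 35.3 against 46.9, 45.2 and 68.7, the smallest log2 ratio among the higher entries, 0.78. REXO1, paired with MIR1909 and named as an RNA exonuclease, had 2.44, 2.70 and 2.29 against 3.61, 2.84 and 8.72. SCRIB, paired with MIR937, is a cell polarity scaffold and had 4.84, 5.55 and 5.16 against 7.80, 6.36 and 17.6. In REXO1 and SCRIB the second PANX1 library was only slightly above the highest GFP library.

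In the 7 entries with a noncoding name in second place, the mean was higher in PANX1 cells in all 7 and limma called 4, beside 87.0% and 33.5% of the table. CPSF1 with MIR939, AMH with MIR4321 and CORO1A with LOC606724 were among those called, with log2 ratios of 1.89, 2.64 and 2.03. None of them was called by limma after the GC correction described below (adjusted p = 0.0801, 0.0955 and 0.537). The limma differences of AMH and CORO1A then turned to -0.58 and -0.11. RPL32, a ribosomal protein gene that hosts SNORA7A, had the highest level of these, a mean of 357 ± 60.7 in GFP and 567 ± 123 in PANX1 cells (SD, n = 3 each). Its groups overlapped, and so did those of ANKRD54 with MIR658. CDC37 with MIR1181 did not overlap and had an adjusted p of 0.0574 by limma.

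The size of the differences depended on the library. Against the mean of the GFP libraries, PANX1 replicates 1 and 2 gave the 16 entries median log2 ratios of 0.79 and 0.78, and PANX1 replicate 3 gave 1.97. For all 1273 entries it was 0.77, 0.61 and 1.87. A log2 ratio above 1 was reached by 5, 4 and 14 of the 16 entries in PANX1 replicates 1, 2 and 3, beside 305, 214 and 1096 of all 1273. PANX1 replicate 3 was the highest PANX1 library in 14 of the 14 higher entries and the lowest in both lower entries, and in the whole table it was the highest in 1081 of 1108 higher entries. Summed over the table, FPKM came to 34950, 38502 and 44473 for GFP and to 53904, 56720 and 105929 for PANX1. Without PANX1 replicate 3 the median log2 ratio was 0.77 for the 16 entries and 0.70 for all entries, and limma then called 11 of the 16 higher and 2 lower, beside 994 higher and 146 lower of the 1273 entries. Leaving out GFP replicate 1 left 0 called by limma in either direction, beside 8 higher and 1 lower of all entries. At an unadjusted p under 0.05 there were then 7 higher and 1 lower of the 16, beside 253 and 21 of all entries. Leaving out GFP replicate 2 or GFP replicate 3 left 2 called higher, SNHG9 and LOC100130776 each time, and 0 lower, beside 14 and 51 called higher and 0 lower of all entries. LOC100507387 was lower at an unadjusted p under 0.05 both times, beside 9 and 6 of all entries.

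**Figure D3:**
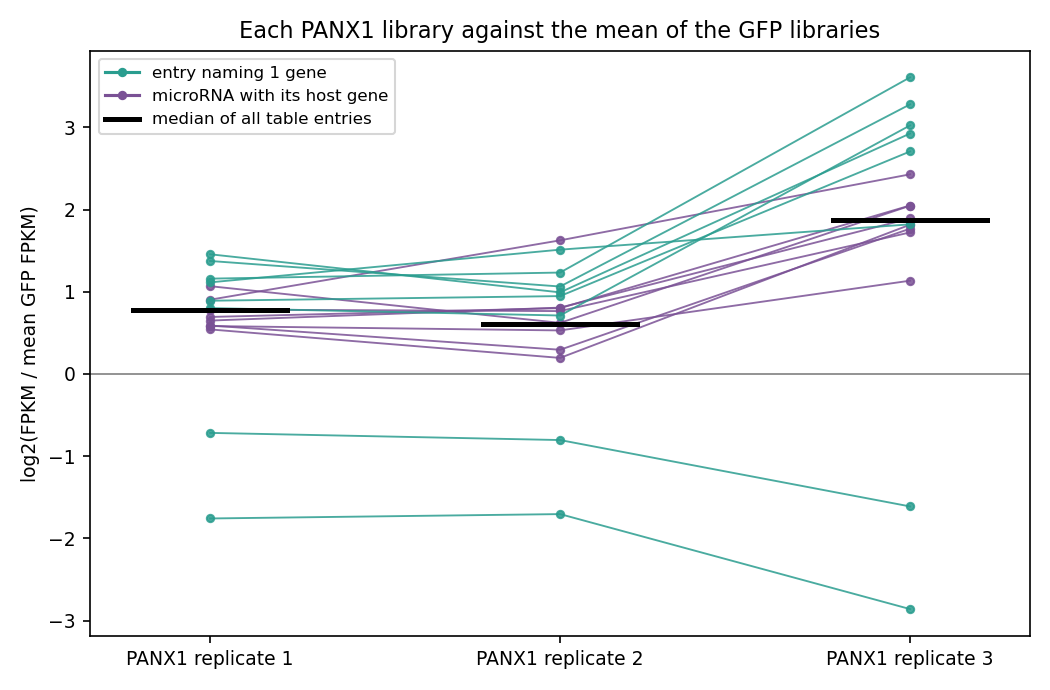
log2 of the FPKM in each PANX1 library over the mean GFP FPKM, 1 line for each of the 16 entries (green for single-gene entries, purple for microRNA hosts), with black bars at the medians of all table entries, 0.77, 0.61 and 1.87. The lines join the values of an entry and imply no order of replicates; all 14 higher entries are farthest from 0 in replicate 3 and so are both lower ones.

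Because nearly the whole table was higher in PANX1 cells, the 16 entries were also compared after a median-of-ratios scaling over the table, which took the median log2 ratio of all entries from 1.23 to 0.04. That fall follows by construction, since the scaling brings the typical entry of each library to the same level. The method assumes that most entries are unchanged, while this table holds entries already called changed, 87.0% of them higher. Scaled values thus place an entry relative to the table only. The 16 entries then had a median of 0.16, with 11 higher and 5 lower, against 14 and 2 before, and 699 higher and 574 lower in the table. All 6 higher single-gene entries kept a higher mean, led by SNHG9 at 1.07, LOC100288778 at 0.90 and LOC100130776 at 0.75. PHC2, REXO1 and SCRIB turned lower, at -0.29, -0.22 and -0.19. LOC100507387 and LOC338758 moved further down, to -2.86 and -1.84. limma called none of the 16 after this scaling, and none of the 1273 entries, while 3 of the 16 were higher and 2 lower at an unadjusted p under 0.05, beside 145 and 171 of all entries. When each library's slope on the GC content of the entries' genomic spans was removed, limma called LOC100507387 alone of the 16 (difference -1.05, adjusted p = 0.0115), in a table where 0.157% were called lower. The correction was centred at 45.3% GC, the median of protein-coding gene spans, which is below the table's median. It therefore also shifted the level of whole libraries. The median limma difference of all entries went from 0.89 to 0.22, so lost calls and turned signs include this shift. The GC content of the 16 spans had a median of 54.8%, from 37.3% in TMEM161B-AS1 to 65.8% in SNHG9, and the table's median was 55.9%. The part of library composition and of GC content in these differences was not tested.

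**Figure D4:**
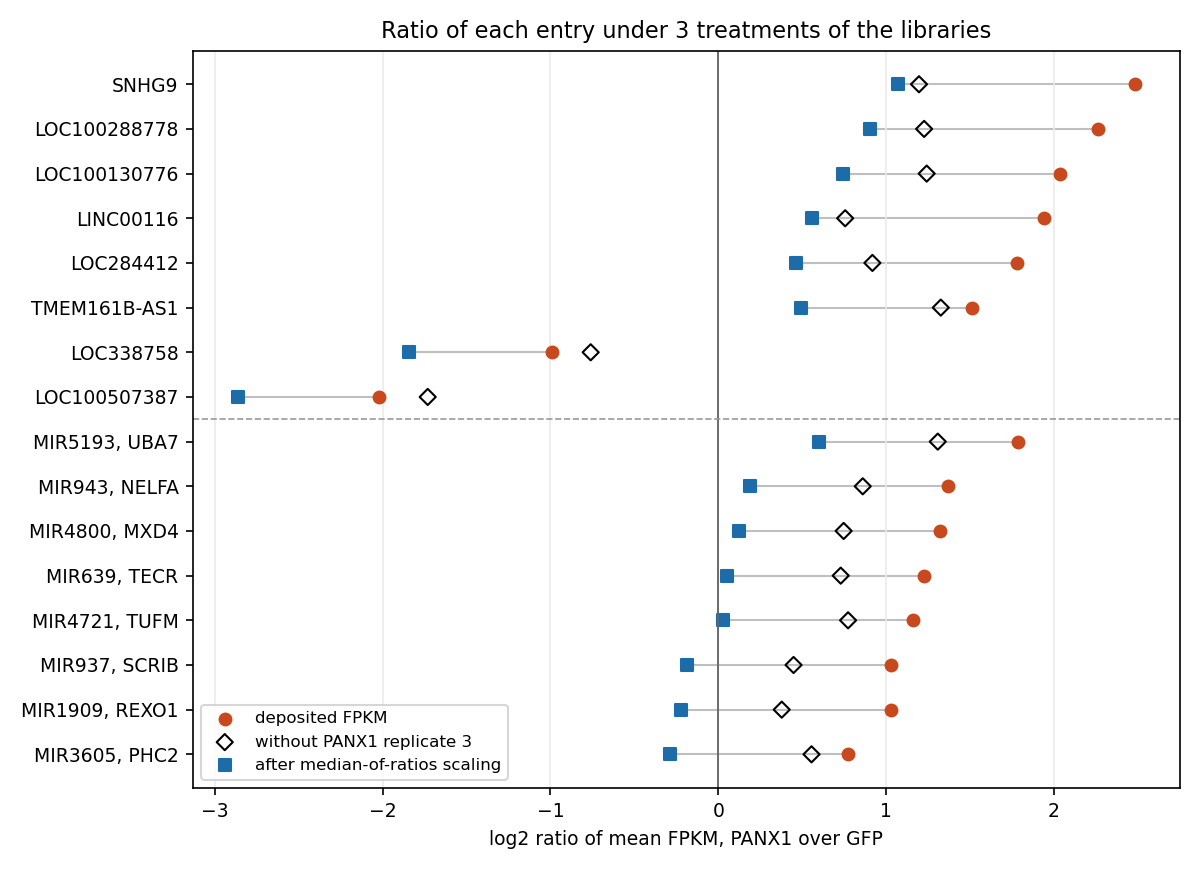
log2 ratio of mean FPKM, PANX1 over GFP, for each of the 16 entries from the deposited values (orange circles), without PANX1 replicate 3 (open diamonds) and after median-of-ratios scaling (blue squares). The scaled ratios of the microRNA hosts lie between -0.29 and 0.60, the highest being UBA7. Those of the higher single-gene entries lie between 0.46 and 1.07, so the 2 ranges overlap. LOC338758 and LOC100507387 lie at -1.84 and -2.86.

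The loci of the 16 entries lie on 9 chromosomes, and 7 of them have another table entry within 100000 bases. In all 7 the mean of the nearest such entry differed in the same direction, against 98.1% of the 777 entries of the table that have such a neighbour. SNHG9 had the most, with 7, in a gene-dense stretch of chromosome 16. The nearest, TBL3, a protein of ribosomal RNA processing, lies 6559 bases away and was called higher (log2 ratio 1.90, adjusted p = 0.0347). NTHL1, a DNA repair glycosylase, and SLC9A3R2, a scaffold protein, were called as well (log2 ratios 1.79 and 1.76, adjusted p = 0.0341 and 0.0227). NOXO1, GFER, MSRB1 and ZNF598 were higher in mean and not called. The entry of NDUFB7, a subunit of respiratory complex I, lies 98 bases from the TECR entry, on the other strand and with its 3′ end nearest. GFP libraries had 3.96, 8.77 and 7.85 and PANX1 libraries 23.5, 15.1 and 125 (log2 ratio 2.99, limma adjusted p = 0.00011), while the log2 ratio of TECR was 1.23. PUF60, a splicing factor, lies 965 bases from SCRIB and had 18.6, 22.7 and 24.4 against 38.3, 31.8 and 89.8 (log2 ratio 1.28, limma adjusted p = 0.0325). MARCH9, a ubiquitin ligase, lies 12937 bases from LOC100130776 and was not called (log2 ratio 0.75, adjusted p = 0.0836).

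The lower entries had no table entry within 100000 bases. The nearest to LOC100507387 was CLTB, a clathrin light chain, 267288 bases away and higher in mean (log2 ratio 1.23). The nearest to LOC338758 was EEA1, an early endosome tether, 3060556 bases away and lower in mean (log2 ratio -0.76). ATP2B1, AGAP2, TMEM161B and RPS2, the coding partners beside 4 of the entries, are not table entries and were not analysed here.

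Genes that make or degrade noncoding RNA were examined in 5 lists of 91 symbols. Of these, 8 are table entries, 7 higher and 1 lower in mean, and limma called 2 higher and 0 lower, beside 33.5% and 0.707% of the table. RUVBL2, an ATPase that helps to assemble small nucleolar ribonucleoproteins, had 16.9, 21.7 and 21.9 in GFP and 34.1, 30.3 and 99.7 in PANX1 cells (log2 ratio 1.44, adjusted p = 0.0247). EXOSC5, a subunit of the RNA exosome that trims and destroys nuclear RNA, had 1.98, 3.66 and 4.85 against 7.20, 6.85 and 30.4 (log2 ratio 2.08, adjusted p = 0.0237). Neither call held after the GC correction or when GFP replicate 1, 2 or 3 was left out, and 7 of the 8 were called higher without PANX1 replicate 3; the calls of the whole table fell to 8, 14 and 51 and rose to 994 at the same settings. DICER1, which cuts microRNA precursors, was the lower one. It had 19.7, 16.8 and 15.3 in GFP and 11.7, 12.2 and 4.69 in PANX1 cells, without overlap, and its adjusted p of 0.0916 did not pass. Without PANX1 replicate 3 it was the 1 entry of these lists called lower, beside 146 of the 1273 entries. TARBP2, a partner of DICER1, the exosome subunit EXOSC4 and the Integrator subunits CPSF3L, INTS5 and INTS1 were higher in mean and not called. No entry came from the list for nonsense-mediated decay.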

How the data were processed

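The authors aligned reads to hg19 with TopHat 2.0.13 and Bowtie2 2.2.3 and computed FPKM with Cufflinks 2.2.1. They deposited these FPKM values for 1273 entries already selected on the same 6 libraries, with no read counts; totals of sequenced reads in the study's methods were not used. How Cufflinks scaled the libraries was not given in the sources used here. Cufflinks gives each entry the span of its overlapping transcripts, and 1 was added to each start. The members and lists were chosen with earlier results of these data known. Differences were tested with limma 3.58.1 in R 4.3.3 (eBayes with trend) on log2(FPKM + 1), which compresses differences between low values, using the 6 libraries and no block. P-values were adjusted by Benjamini-Hochberg over 1273 entries, and the threshold was 0.05. On simulated data limma recovered 200 of 200 changed entries and called 5 unchanged ones. The simulated noise was set well below the spread of the real replicates and held no outlying library. This recovery therefore checks the code and does not give the power of the test on these data. Ratios used mean FPKM without a pseudocount. Values in every library are given for each member. Of the entries with a noncoding name in second place, 1 is not reported here. Copies were sought with minimap2 2.31 on GRCh37 in single-gene spans of up to 20000 bases, genes came from GENCODE v44lift37, and names, microRNAs and promoters from RefSeq. Replicates follow the sample titles. Nothing in the labels says that the cultures were independent, although the methods call them biological replicates. Alternatives tried were a pseudocount of 0.1 or 0.01, entries with a mean FPKM of at least 1, eBayes without trend, replicate blocks, median-of-ratios scaling, GC correction, ratios of medians, leaving out each library and leaving out entries that name several genes.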

Additional observations from a re-analysis of the deposited data

How the results depend on the processing

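The table is selected, so its calls are not evidence beyond replicate spread, and with 3 libraries in each group no exact p can fall below 0.1. Of the 16 entries, 8 were called higher and 1 lower. Those called higher numbered 5 with a minimum mean FPKM of 1 (321 of 1161 entries tested), 0 without the eBayes trend (0 of all 1273), 0 after median-of-ratios scaling (0 of all), 0 after GC correction (9 of all), 2 after GC correction with the replicate block (71 of all), 10 with a block by culture number (1005 of all), 5 among entries naming 1 gene, and 0 to 11 when a library was left out (8 to 994 of all). Those called lower numbered 0 without the trend, 0 after scaling, 2 with the block by culture number (140 of all), and 0 to 2 when a library was left out. At an unadjusted p under 0.05, 8 of the 16 were higher and 2 lower without the trend (770 and 54 of all), and 8 higher and 2 lower after GC correction (375 and 108 of all). Of the RNA processing genes, 2 were called higher, against 0 without the trend, 7 with the block by culture number, 0 after scaling, 0 after GC correction, 1 after GC correction with the replicate block and 0 to 7 when a library was left out; 0 were called lower, against 1 with the block by culture number and 0 to 1 when a library was left out. The median log2 ratio of 1.35 moved to 0.16 after scaling and 0.50 after GC correction. The count of entries without overlap, and of those at the smallest exact p, was 16 (1195 of all without overlap). It was 5 after scaling (445 of all) and 8 among entries naming 1 gene. After GC correction 13 did not overlap (588 of the 1266 entries above 0 in every library). These were 9 higher and 4 lower, against 14 and 2 on the deposited values, beside 436 higher and 152 lower of the 1266. The median of PANX1 replicate 1 moved to 0.051 after scaling, and that of replicate 3 to 0.10 after scaling, 0.69 after GC correction and 2.82 among entries naming 1 gene. With neighbours within 10000 bases, the 7 entries with a neighbour of the same direction became 4 of 4, beside 394 of 398 in the table. With the window of 100000 bases they became 5 of 7 after median-of-ratios scaling, with no count over all entries to set beside it. The limma difference turned negative after scaling for PHC2 (-0.31), REXO1 (-0.17) and SCRIB (-0.16), and after GC correction, with or without the replicate block, for REXO1 (-0.24), SCRIB (-0.22), LOC284412 (-0.18), MXD4 (-0.14) and UBA7 (-0.12). The restriction to entries naming 1 gene counts 8 entries in place of 16. The minimum mean FPKM removed UBA7, while LINC00116 and TMEM161B-AS1 were still tested and had adjusted p of 0.0811 and 0.0778 by limma (0.00540 to 0.476 and 0.00361 to 0.440 over all alternatives). For the other settings the cause was not tested.

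Same-numbered libraries did not all deviate together (correlations of 0.42, -0.36 and 0.14 for title numbers 1, 2 and 3), and the sample descriptions number the cultures otherwise than the titles, 1 to 3 for GFP and 2 to 4 for PANX1. The study's methods speak of matching replicates without numbering them, so the numbers were not taken as pairs. A replicate block by title number left the calls at 8 higher and 1 lower, and the table's at 581 higher and 33 lower, against 426 and 9 without it. In the block by culture number GFP replicate 1 and PANX1 replicate 3 have no partner and add nothing to the difference, which for SNHG9 was 0.97 in place of 1.95.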
